A study of Mus musculus with 8 samples.

Results

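The 41 genes described here encode the transcription factor NRF2, its sensor KEAP1 and the enzymes and binding proteins of the glutathione, thioredoxin, peroxide, metal and iron defence. They were taken by gene symbol from the 41457 genes of the deposited tables, and every symbol was found. The cells were KCs, the keratinocytes of the epidermis, prepared from tail skin of adult wild-type mice, C57BL/6 by the labels and C57BL/6J by the study's text, and left untreated. They were grown in serum-free KC medium with 0.06 mM calcium and passaged when almost confluent, for 1 week (4 samples) or for 3 weeks (4 samples). All samples therefore share strain, genotype, tissue and medium, and there were no uncultured cells. The comparison of the times asks how the transcripts of tail KCs differ with the length of culture. The labels do not say how many animals went into a sample, so the p-values measure the spread between these samples.

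NRF2 is made all the time and is held for degradation by KEAP1. When oxidants or electrophiles modify KEAP1, NRF2 accumulates, pairs with a small MAF protein and binds antioxidant response elements (AREs) near genes for glutathione synthesis, quinone reduction, haem breakdown and iron storage. Glutathione is the main soluble thiol of the cell: peroxidases use it to reduce peroxides, and transferases couple it to reactive lipids and foreign compounds. The epidermis meets oxygen, sunlight and chemicals directly, and these systems are known as part of its protective chemistry.

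Between 13896807 and 20026084 reads per sample lay on exons at 1 week, and between 14096649 and 18127283 at 3 weeks. Levels are given as RPKM, the authors' reads scaled to exon length and mapped reads. Fold changes are log2 values, 3 weeks over 1 week, from edgeR on the exon reads after TMM normalization, each with its standard error (SE) and an adjusted p (quasi-likelihood test, Benjamini-Hochberg over all tested genes, threshold 0.05). The median change of all tested genes was 0.03 on this scale and -0.16 on the log2(RPKM + 0.1) scale, so RPKM values lie lower at 3 weeks than the fitted changes by about that shift. Replicate 3 at 3 weeks stood apart, with 13.3% of its exon reads on mitochondrial genes against 2.19% to 4.43% in the others. The KC markers Krt5, Krt14, Trp63, Itga6, Itgb4, Cdh1, Dsp and Perp were present in every sample and summed to between 13370 and 15764 RPKM at 1 week and between 8311 and 9920 RPKM at 3 weeks. Of these 8 markers, 2 fell (Krt5 and Itga6) and none rose. The markers of fibroblasts (7 genes) summed to at most 5.15 RPKM, those of endothelial cells (4 genes) to at most 0.559 RPKM, and those of immune cells (6 genes, with Cd207 at 0) to between 2.09 and 4.88 RPKM at 1 week and between 4.21 and 10.7 RPKM at 3 weeks. H2-Ab1 rose and was the only marker of these 3 cell types to do so, and Pdgfrb of the fibroblast list fell. The part of other cells in the results below was not tested, and fewer cells of a type cannot be told apart from less RNA per cell.

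After 3 weeks, the transcripts of Srxn1, Cat, Gpx2, Gpx3 and of the transferases Gsto1, Mgst1 and Gsta3 were among those that were higher. The transferases Gsta4 and Mgst2, the peroxiredoxin Prdx4 and the metallothionein Mt2 were lower. Nfe2l2 and Keap1 themselves did not pass the test. Of the 41 genes, 39 had enough reads to be tested. Of these, 18 (46.2%) passed the threshold, against 32.8% of all 12590 tested genes. Higher at 3 weeks were 14, against a background of 15.7% of all tested genes, and lower were 4, against 17.0%. The other 21 did not pass. The median change of the 39 genes was 0.36, and 25 changes were positive and 14 negative. In 14 of the 39 (35.9%) the RPKM values of the 2 groups did not overlap, close to the 37.0% of all tested genes. All 3-week samples lay above all 1-week samples for 9 (10.8% of all tested genes) and below them for 5 (26.2%). The calls of Gpx2, Srxn1, Cat, Gsta3, Mgst1 and Mt2 (6 of the 18) held under every alternative that gave a value, and 12 of the 39 passed with a change of at least 2-fold (15.4% of all tested genes). On the log2(RPKM + 0.1) scale 9 were higher (10.3% of all tested genes) and 5 lower (24.0%), so the shares of the directions depend on the scaling. According to the study, batches of KCs were shared between the times. The names of the deposited files carry a preparation number, which was taken as the batch. In the 6 samples of the 3 preparations found at both times, with the preparation as a block, 10 passed against 24.6% of all genes, 6 higher (10.4%) and 4 lower (14.2%).

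**Figure D1:**
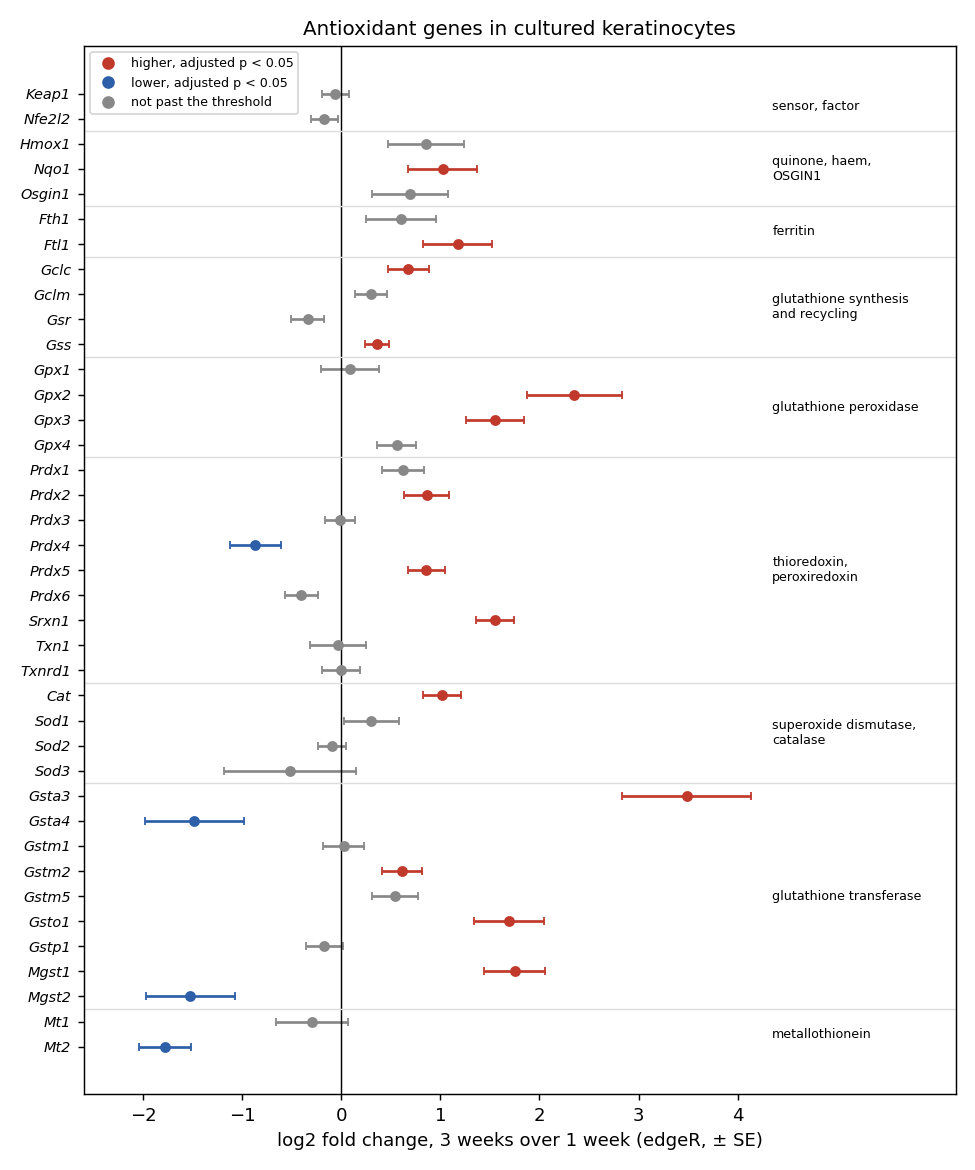
Log2 fold change, 3 weeks over 1 week, of the 39 tested genes, grouped by role, with bars of 1 SE from edgeR. Red and blue points passed the adjusted p threshold of 0.05 (14 higher, 4 lower) and grey points did not (21); the largest rise was that of Gsta3, a gene with 28 reads in all at 1 week.

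The letters of the ARE core, TGACNNNGC on either strand, were looked for in promoter windows of RefSeq (GRCm38.p6), which run from 250 bases before to 50 bases after a gene's start. Windows were held for 35 of the 41 genes. The core was found in 10 of the 35 (28.6%), against 3781 of all 27025 genes with a window and 12.4% of all windows. The matches are shown because NRF2 is the factor these letters are known for. Each line gives the core in capitals with 10 bases on either side, 5′ to 3′ on the strand that reads TGAC.
Srxn1 (chr2:152105542-152105570, minus strand): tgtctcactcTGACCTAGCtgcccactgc
Gsta3 (chr1:21240454-21240482, plus strand): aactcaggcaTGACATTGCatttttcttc
Mgst1 (chr6:138140461-138140489, minus strand): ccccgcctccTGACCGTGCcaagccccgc
Mt2 (chr8:94172529-94172557, plus strand): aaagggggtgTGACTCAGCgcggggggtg
Prdx1 (chr4:116685456-116685484, minus strand): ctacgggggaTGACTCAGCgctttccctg
Gclm (chr3:122245413-122245441, minus strand): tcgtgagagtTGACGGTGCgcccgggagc
Nfe2l2 (chr2:75704885-75704913, minus strand): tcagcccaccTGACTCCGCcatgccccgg
Txnrd1 (chr10:82859104-82859132, minus strand): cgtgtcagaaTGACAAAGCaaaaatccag
Gstm5 (chr3:107895802-107895830, plus strand): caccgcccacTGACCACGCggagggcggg
Sod1 (chr16:90220696-90220724, minus strand): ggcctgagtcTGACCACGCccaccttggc
Of these 10 genes, Srxn1, Gsta3 and Mgst1 rose, Mt2 fell, and 6 did not pass the test. Mt2 and Prdx1 hold the same core, TGACTCAGC, whose first letters TGACTCA are also those of the AP-1 site, so that the 2 motifs overlap there. The match of Srxn1 lies 29 bases after the start and the others between 42 and 240 bases before it. That of Txnrd1 is in only 1 of its windows. A match is a description of letters and no measurement of binding. The table held no window for Hmox1, Gclc, Gsr, Gsta4, Prdx6 and Sod3.

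Neither the factor nor its sensor passed the test. Nfe2l2 encodes NRF2. Its RPKM at 1 week was 29.6, 30.6, 34.2 and 40.1 (here and below in the order of replicates 1 to 4), and at 3 weeks 29.0, 28.1, 20.4 and 29.9. The fitted change was -0.17 ± 0.14 (SE; adjusted p = 0.368). The groups overlapped, and the lowest value was that of replicate 3 at 3 weeks. Keap1 was at 9.20, 8.87, 10.5 and 11.5 RPKM at 1 week and at 8.78, 8.56, 7.02 and 10.2 RPKM at 3 weeks, with a change of -0.06 ± 0.13 (adjusted p = 0.763). The values of the 2 groups overlapped for this gene too. Keap1 overlaps Gm16754 on the opposite strand, and strand use in the counting is not stated. Transcript levels do not measure how much NRF2 protein is held by KEAP1.

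Genes that are commonly read as NRF2 targets moved unequally. Nqo1 encodes a quinone reductase. At 1 week it was at 15.6, 17.3, 16.2 and 20.7 RPKM, and at 3 weeks at 25.1, 34.5, 49.1 and 15.1 RPKM. Replicates 1 to 3 at 3 weeks lay above all 1-week samples, and replicate 4 lay below them. The change was 1.02 ± 0.35 (adjusted p = 0.0488), and the call was lost on leaving out any sample other than replicate 4 at 3 weeks (7 of 8 omissions, adjusted p from 0.0603 to 0.110), with the change at 0.61 without replicate 3 at 3 weeks. It was also lost with the preparation as a block (0.52, adjusted p = 0.247). Over all 18 alternatives, which include other scales, filters and tools, the call was kept in 4 and lost in 14.

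Hmox1, the haem oxygenase that opens the haem ring, had RPKM values of 28.5, 27.7, 66.0 and 80.0 at 1 week and of 92.8, 100, 82.4 and 49.4 at 3 weeks. The 1-week samples split into replicates 1 and 2, which were low, and replicates 3 and 4, which were high, and replicate 4 at 3 weeks lay among them. The change of 0.85 ± 0.38 did not pass (adjusted p = 0.119). Osgin1, an oxidative stress-induced growth inhibitor, spanned 4.18 to 7.04 RPKM at 1 week against 3.48 to 15.5 RPKM at 3 weeks, and its change of 0.69 ± 0.38 did not pass either (adjusted p = 0.195).

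Ferritin, the iron store, is built of a light and a heavy chain, and its transcripts were the most abundant of the 41 genes at both times. Ftl1 (light chain) was at 1413, 1203, 1141 and 941 RPKM at 1 week and at 2410, 2821, 3107 and 1012 RPKM at 3 weeks. Replicates 1 to 3 at 3 weeks lay above all 1-week samples, and replicate 4 lay among them. The change was 1.18 ± 0.35 (adjusted p = 0.0295). Without replicates 2, 3 or 4 at 1 week, or 1, 2 or 3 at 3 weeks, the call was lost (adjusted p from 0.0555 to 0.0835), as it was with the preparation as a block (0.80, adjusted p = 0.0875). Only 8.56% of the Ftl1 reads were mapped uniquely, and the change on those reads was 1.21 (adjusted p = 0.0172). Fth1 (heavy chain) showed another order of samples, with 1745, 1389, 1896 and 2031 RPKM at 1 week and 1105, 1922, 2448 and 4111 RPKM at 3 weeks. Its highest and its lowest value both came from 3-week samples, and the change was 0.60 ± 0.35 (adjusted p = 0.223). The ratio of Ftl1 to Fth1 RPKM ran from 0.463 to 0.866 at 1 week and was 2.18, 1.47, 1.27 and 0.246 in replicates 1 to 4 at 3 weeks (two-sided exact permutation test, p = 0.457, adjusted p = 0.457 over the 3 ratios tested).

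**Figure D2:**
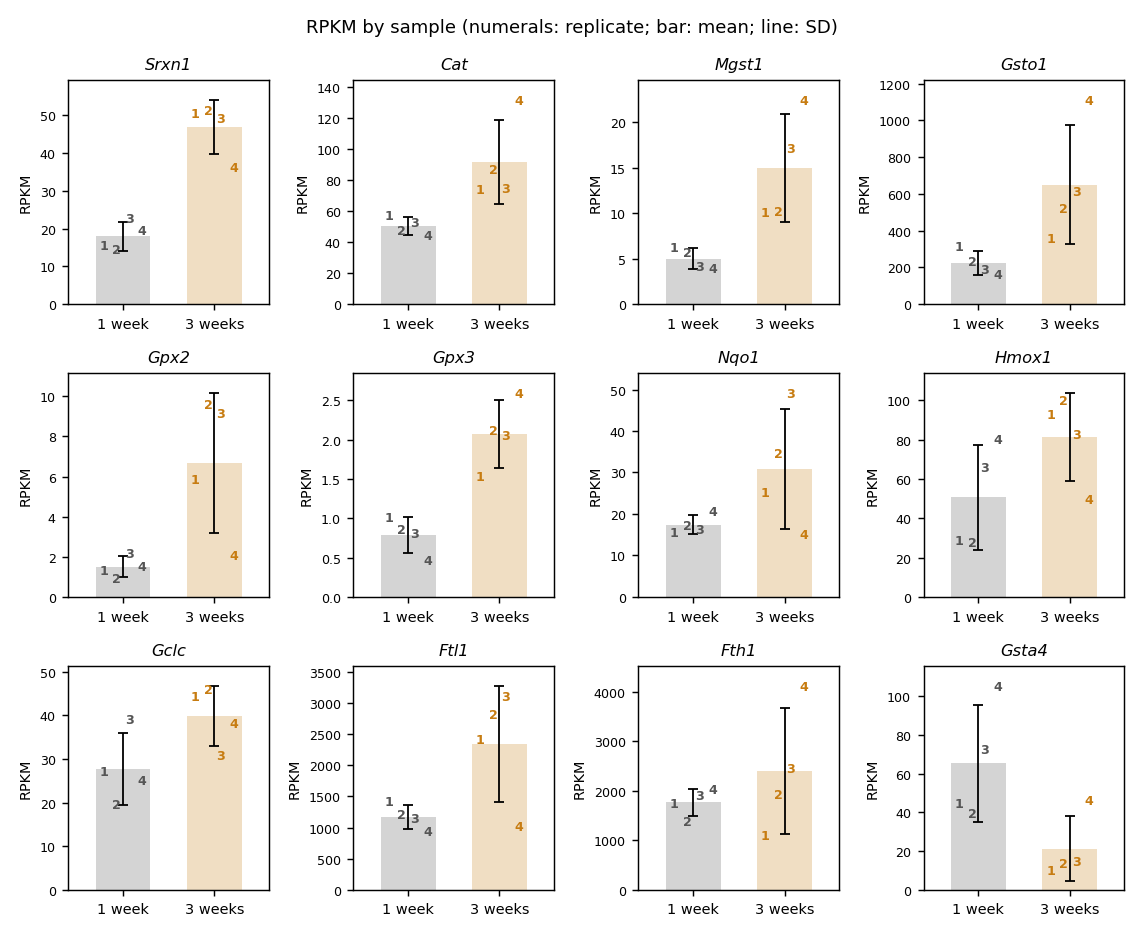
RPKM of 12 genes in each sample at 1 week (grey) and 3 weeks (orange). Numerals are the replicate numbers, bars the means and black lines the SD of 4 samples; replicate 4 at 3 weeks was the lowest 3-week sample for Srxn1, Gpx2, Nqo1, Hmox1 and Ftl1 and the highest for Cat, Mgst1, Gsto1, Gpx3, Fth1 and Gsta4.

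Glutathione is made in 2 steps and recycled by a reductase. Gclc, the catalytic subunit of the ligase for the first and rate-limiting step, was at 27.1, 19.6, 39.0 and 25.2 RPKM at 1 week and at 44.4, 45.9, 30.9 and 38.0 RPKM at 3 weeks. The groups overlapped through replicate 3 at 1 week, which lay above replicates 3 and 4 at 3 weeks. The change was 0.68 ± 0.21 (adjusted p = 0.0332), and it lost the call without replicates 1, 2 or 4 at 1 week or replicates 1 or 2 at 3 weeks (adjusted p from 0.0707 to 0.0925).

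Gclm, the modifier subunit of the same ligase, spanned 3.87 to 5.60 RPKM at 1 week against 4.70 to 5.81 RPKM at 3 weeks, and its change of 0.30 ± 0.16 did not pass (adjusted p = 0.194). The ratio of Gclc to Gclm was 5.61 ± 1.07 (SD, n = 4) at 1 week and 7.45 ± 1.33 (SD, n = 4) at 3 weeks, a difference that did not pass (two-sided exact permutation test, p = 0.0857, adjusted p = 0.129 over 3 ratios). Only 25.4% of the Gclm reads were mapped uniquely. Gss, the synthase of the second step, went from a range of 6.64 to 7.47 RPKM at 1 week to 7.49 to 8.57 RPKM at 3 weeks, a small rise without overlap (0.36 ± 0.12, adjusted p = 0.0454). Gss kept its call without replicate 4 at 3 weeks and lost it without any of the other 7 samples (adjusted p from 0.0526 to 0.121), on uniquely mapped reads (adjusted p = 0.0653) and with the preparation as a block (0.27, adjusted p = 0.257). Gss shares its locus with Acss2, Gssos1 and Gssos2 on the opposite strand. Gsr, the reductase that returns oxidised glutathione to its thiol form, was at 15.2, 15.5, 22.2 and 20.7 RPKM at 1 week and at 11.7, 13.2, 10.9 and 16.3 RPKM at 3 weeks. Its change of -0.34 ± 0.17 did not pass (adjusted p = 0.152), and the groups overlapped.

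Among the glutathione peroxidases, 2 of 4 rose and these were the 2 with low levels. Gpx2, best known from the gut epithelium, was at 1.32, 0.934, 2.18 and 1.53 RPKM at 1 week and at 5.86, 9.57, 9.15 and 2.07 RPKM at 3 weeks. Replicate 4 at 3 weeks stayed within the range of the 1-week samples and the other 3 lay above it. The change was 2.35 ± 0.48 (adjusted p = 0.00613). It fell to 1.68 with the preparation as a block (adjusted p = 0.0259), a fit over 6 samples. Of the Gpx2 reads, 7.84% were mapped uniquely, and on those the change was 2.06 (adjusted p = 0.0209).

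Gpx3, the secreted peroxidase found in plasma, was at 1.01, 0.857, 0.807 and 0.469 RPKM at 1 week and at 1.54, 2.11, 2.05 and 2.59 RPKM at 3 weeks. All 3-week samples lay above all 1-week samples, and the change was 1.55 ± 0.29 (adjusted p = 0.00421). With the preparation as a block Gpx3 did not pass (1.53, adjusted p = 0.0514). The abundant peroxidases did not pass. Gpx1, the cytosolic form, ranged from 307 to 366 RPKM at 1 week and was at 306, 356, 424 and 154 RPKM at 3 weeks (0.09 ± 0.30, adjusted p = 0.850), and its direction turned with the scaling, to -0.19 on the log2(RPKM + 0.1) scale. Gpx4, which reduces lipid peroxides in membranes, spanned 110 to 152 RPKM at 1 week against 146 to 214 RPKM at 3 weeks. Its change of 0.56 ± 0.20 lay just outside the threshold (adjusted p = 0.0565) and passed without replicate 4 at 3 weeks (0.61, adjusted p = 0.0471).

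Srxn1 had the smallest adjusted p of the 39 genes. It encodes sulfiredoxin, which repairs peroxiredoxins that have been over-oxidised by peroxide, and lies at chr2:152105516-152111376. At 1 week its RPKM was 15.5, 14.3, 22.6 and 19.5, and at 3 weeks 50.6, 51.3, 49.3 and 36.2. Every 3-week sample lay above every 1-week sample, with replicate 4 apart from the other 3. The mean was 18.0 ± 3.79 RPKM (SD, n = 4) at 1 week and 46.8 ± 7.14 RPKM (SD, n = 4) at 3 weeks. The change was 1.55 ± 0.19 (adjusted p = 0.000687) and lay between 1.45 and 1.68 over the 8 omissions of a sample.

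The peroxiredoxins, a main family of peroxide scavengers of which sulfiredoxin repairs some members, went in different directions. Prdx2, a cytosolic form, rose from a range of 77.5 to 105 RPKM at 1 week to 116 to 198 RPKM at 3 weeks (0.86 ± 0.23, adjusted p = 0.0178), without overlap. It did not pass without replicate 3 (adjusted p = 0.0504) or replicate 4 (adjusted p = 0.0574) at 1 week, nor with the preparation as a block (0.60, adjusted p = 0.0582), and it overlaps Junb and Rnaseh2a on the opposite strand. Prdx5, found in mitochondria and peroxisomes, rose from a range of 66.0 to 82.8 RPKM to 105 to 152 RPKM (0.86 ± 0.19, adjusted p = 0.00780), again without overlap. It overlaps Trmt112 on the opposite strand and did not pass with the preparation as a block (0.57, adjusted p = 0.0573).

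Prdx4, the form of the endoplasmic reticulum, was at 21.2, 16.9, 15.9 and 14.1 RPKM at 1 week and at 8.46, 9.33, 10.2 and 4.91 RPKM at 3 weeks. It was the only peroxiredoxin that fell (-0.87 ± 0.26, adjusted p = 0.0295), and all 3-week samples lay below all 1-week samples. The call was lost without replicates 1, 2 or 3 at 1 week or replicates 1 or 2 at 3 weeks (adjusted p from 0.0507 to 0.0691). Prdx1, the most abundant peroxiredoxin, spanned 246 to 307 RPKM at 1 week against 300 to 482 RPKM at 3 weeks (0.62 ± 0.21, adjusted p = 0.0509) and passed without replicate 4 at 3 weeks (0.74, adjusted p = 0.0195). Prdx6, which also reduces phospholipid peroxides, had lower RPKM values in every 3-week sample (39.6 to 55.8) than in any 1-week sample (67.3 to 78.5). Its fitted change of -0.40 ± 0.17 did not pass (adjusted p = 0.0960), but it passed without replicate 3 at 3 weeks (-0.56, adjusted p = 0.0153) and on the RPKM scales. The mitochondrial form Prdx3 changed by -0.01 ± 0.15 (adjusted p = 0.953).

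Thioredoxin, the small protein that feeds electrons to peroxiredoxins, and its reductase did not pass. Txn1 ranged from 407 to 548 RPKM at 1 week and was at 391, 458, 560 and 223 RPKM at 3 weeks (-0.03 ± 0.28, adjusted p = 0.946). Txnrd1 was at 16.8, 18.5, 25.6 and 21.6 RPKM at 1 week and at 22.0, 23.1, 14.5 and 14.4 RPKM at 3 weeks (0.00 ± 0.19, adjusted p = 0.999). The values of both genes overlapped between the groups, and their direction turned under several alternatives.

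Catalase, the peroxisomal enzyme that splits hydrogen peroxide without a thiol, rose. Cat (chr2:103453849-103485160) was at 57.3, 47.2, 52.9 and 44.3 RPKM at 1 week and at 74.0, 86.9, 74.3 and 132 RPKM at 3 weeks. All 3-week samples lay above all 1-week samples, and replicate 4 was the highest. The change was 1.02 ± 0.19 (adjusted p = 0.00394), between 0.82 and 1.12 with each sample left out. None of the 3 superoxide dismutases, which turn superoxide into hydrogen peroxide, passed. Sod1, the cytosolic form, spanned 18.4 to 27.2 RPKM at 1 week against 15.2 to 34.5 RPKM at 3 weeks (0.30 ± 0.27, adjusted p = 0.429). Sod2, the mitochondrial form, ranged from 5.80 to 7.68 RPKM and from 5.03 to 6.15 RPKM (-0.09 ± 0.14, adjusted p = 0.655). Sod3, the extracellular form, was below 1 RPKM in all samples, with 127 reads in all at 1 week and 67 at 3 weeks (-0.51 ± 0.67, adjusted p = 0.590).

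**Figure D3:**
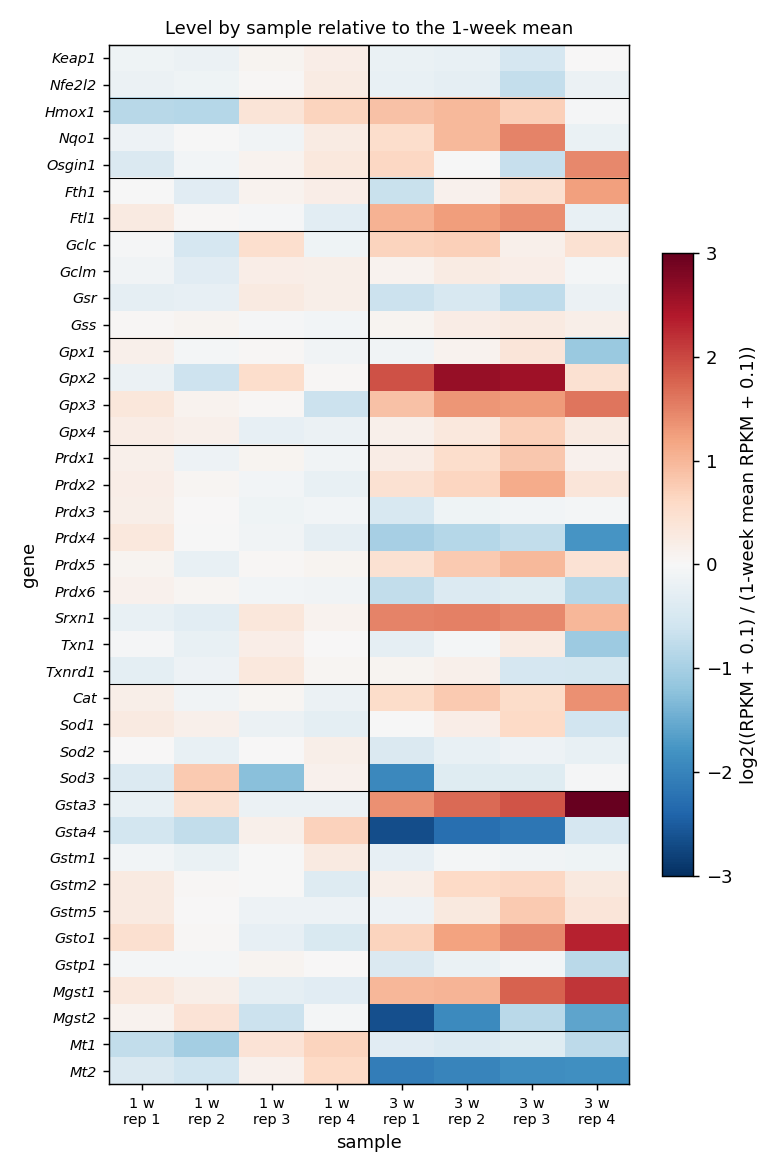
Level of each of the 39 tested genes in each sample, as the log2 of RPKM + 0.1 over the 1-week mean RPKM + 0.1 (red higher, blue lower; the scale ends at 3 in either direction), with the genes in groups by role. Srxn1, Gpx3, Cat, Gsta3, Mgst1 and Gsto1 are higher and Mt2, Mgst2 and Prdx4 lower in all 4 samples at 3 weeks, while Nqo1, Ftl1, Gpx2 and Gsta4 in replicate 4 at 3 weeks lie closer to the 1-week mean than in replicates 1 to 3.

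The glutathione transferases were the role with the widest spread of changes. Of 11 genes 9 were tested, of which 4 rose and 2 fell. Gsto1, an omega-class enzyme that also reduces dehydroascorbate, was the most abundant transferase at 3 weeks. It was at 314, 230, 190 and 163 RPKM at 1 week and at 356, 518, 614 and 1109 RPKM at 3 weeks. All 3-week samples lay above all 1-week samples, although replicate 1 did so by little. The change was 1.69 ± 0.36 (adjusted p = 0.00689), and 27.2% of its reads were uniquely mapped, with a change of 1.64 on those. Without replicates 3 and 4 at 3 weeks together the change was 1.08 (adjusted p = 0.0193), and with the preparation as a block it did not pass (1.54, adjusted p = 0.0630).

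Mgst1, a membrane-bound transferase with peroxidase activity, was at 6.21, 5.67, 4.12 and 3.94 RPKM at 1 week and at 10.02, 10.2, 17.1 and 22.4 RPKM at 3 weeks. The groups did not overlap. The change was 1.75 ± 0.31 (adjusted p = 0.00305) and was 1.14 without replicates 3 and 4 at 3 weeks together (adjusted p = 0.00647). Its relative Mgst2, which can also make leukotriene C4, went the other way, from 2.57, 3.21, 1.5 and 2.30 RPKM at 1 week to 0.304, 0.559, 1.32 and 0.735 RPKM at 3 weeks. The groups were separate here too, and the gap between replicate 3 at 1 week and replicate 3 at 3 weeks was small. Mgst2 fell by 1.52 on the log2 scale (SE 0.45, adjusted p = 0.0293), and the call was lost without replicates 1, 2 or 4 at 1 week or replicates 1 or 2 at 3 weeks (adjusted p from 0.0540 to 0.0793).

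The alpha-class genes also split. Gsta3 was near the limit of detection at 1 week, at 0.0605, 0.156, 0.0641 and 0.0652 RPKM, and was at 0.383, 0.504, 0.589 and 2.18 RPKM at 3 weeks. The lowest 3-week value exceeded the highest 1-week value, and replicate 4 was far above the other 3. In reads this was 28 against 248 over all samples of a time, a ratio of 9.59 after correction for library size (95% interval 6.48 to 14.7, which covers counting error only). Replicate 4 at 3 weeks gave 139 of the 248 reads, and without it the ratio was 5.40 (3.54 to 8.51). The fitted change was 3.49 ± 0.65 (adjusted p = 0.00398) and fell to 2.65 without replicate 4 at 3 weeks (adjusted p = 0.00191). Of its reads 42.4% were mapped uniquely. Gsta4, which couples glutathione to 4-hydroxynonenal, a product of lipid peroxidation, was at 44.7, 39.5, 72.7 and 105 RPKM at 1 week and at 10.3, 13.7, 14.6 and 46.2 RPKM at 3 weeks. Replicates 1 to 3 at 3 weeks were low, and replicate 4 lay within the 1-week range. Gsta4 fell by 1.49 (SE 0.50, adjusted p = 0.0478), and its change was -2.16 without replicate 4 at 3 weeks (adjusted p = 0.00313). Without replicates 1, 3 or 4 at 1 week, or 1, 2 or 3 at 3 weeks, the call was lost (adjusted p from 0.0647 to 0.128). Gsta2 had no read in any sample, which allows at most 0.124 to 0.178 RPKM, the value of 3 reads in each library.

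Of the mu-class genes, Gstm2 rose by a small amount, from a range of 6.79 to 10.9 RPKM to 10.1 to 13.9 RPKM (0.61 ± 0.20, adjusted p = 0.0442), with overlap. It lost the call without replicates 2, 3 or 4 at 1 week or replicates 2 or 3 at 3 weeks (adjusted p from 0.0872 to 0.113), and with the preparation as a block (0.47, adjusted p = 0.175). Gstm1 (0.02 ± 0.21, adjusted p = 0.943) and Gstm5 (0.54 ± 0.23, adjusted p = 0.106) did not pass, although Gstm5 did without replicate 1 at 3 weeks (adjusted p = 0.0479). Gstp1, the pi-class enzyme and the most abundant transferase at 1 week, spanned 232 to 254 RPKM at 1 week against 137 to 228 RPKM at 3 weeks, and its fitted change of -0.17 ± 0.19 did not pass (adjusted p = 0.514). Its RPKM ranges did not overlap, and 36.9% of its reads were uniquely mapped. Gstt1 was not tested. It had 17 reads in all at 1 week and 37 at 3 weeks, a ratio of 2.36 (95% interval 1.29 to 4.46, counting error only), and 25 of the 37 came from replicate 4 at 3 weeks. Without that library the ratio was 0.98 (0.427 to 2.18).

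Metallothioneins are small cysteine-rich proteins that bind zinc and copper and scavenge radicals. Their genes are driven by metal response elements (MREs), which the zinc-sensing factor MTF-1 binds. Mt2 and Mt1 lie next to each other on chromosome 8, at chr8:94172664-94173568 and chr8:94179082-94180327, with 5513 bases between them. The 250 bases before the RefSeq start of each (GRCm38.p6, plus strand) are printed because Mt2 holds the largest fall of the 39 genes and Mt1 is its neighbour. Capitals mark the letters of the MRE core (TGCACNC or TGCGCNC, either strand) and of the ARE core.
Mt2 (chr8:94172368-94172617): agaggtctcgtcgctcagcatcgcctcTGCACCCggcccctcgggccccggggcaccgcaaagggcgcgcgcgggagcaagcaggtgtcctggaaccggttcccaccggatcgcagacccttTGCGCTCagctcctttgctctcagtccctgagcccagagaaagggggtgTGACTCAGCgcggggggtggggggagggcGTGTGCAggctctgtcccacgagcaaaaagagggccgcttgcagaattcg
Mt1 (chr8:94178839-94179088): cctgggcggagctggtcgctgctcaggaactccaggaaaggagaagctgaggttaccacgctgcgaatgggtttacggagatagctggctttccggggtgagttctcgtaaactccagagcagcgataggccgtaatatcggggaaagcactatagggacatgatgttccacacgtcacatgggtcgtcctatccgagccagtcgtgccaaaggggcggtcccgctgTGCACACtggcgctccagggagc
The printed Mt2 stretch holds 3 MRE cores and 1 ARE core, and that of Mt1 holds 1 MRE core and no ARE core. With the 50 bases after the start, Mt2 held 4 MRE cores and Mt1 held 3, so most of the Mt1 cores are not within the printed stretch. The counts depend on the RefSeq start used, and letters beyond the windows were not searched. They therefore do not compare the whole promoters of the 2 genes. An MRE core was found in 25.7% of all windows, and 3 or more in 1.97%.

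Mt2 fell and Mt1 did not pass. Mt2 was at 184, 164, 270 and 378 RPKM at 1 week and at 58.6, 62.5, 67.8 and 69.0 RPKM at 3 weeks. Every 3-week sample lay far below every 1-week sample, and the spread shrank from 249 ± 97.5 RPKM (SD, n = 4) to 64.5 ± 4.84 RPKM (SD, n = 4). Mt2 fell by 1.78 on the log2 scale (SE 0.26, adjusted p = 0.00136), 3.43-fold, and by between 1.51 and 1.94 with each sample left out. On the 68.3% of its reads that were mapped uniquely it fell by 1.85 (adjusted p = 0.0013). Mt2 overlaps Gm45774 on the opposite strand. Mt1 was at 62.7, 51.8, 139 and 168 RPKM at 1 week and at 83.0, 78.6, 82.2 and 60.9 RPKM at 3 weeks. Its 3-week samples lay between the low pair and the high pair of the 1-week samples, and the change was -0.30 ± 0.36 (adjusted p = 0.567). Within a sample, the ratio of Mt2 to Mt1 RPKM was 2.93, 3.16, 1.94 and 2.25 at 1 week and 0.706, 0.795, 0.825 and 1.13 at 3 weeks. The ratio was thus lower in 4 of 4 samples at 3 weeks, by 1.57 on average on the log2 scale, with p = 0.0286, the smallest p that a two-sided exact permutation test of 4 against 4 can give, and an adjusted p of 0.0857 over the 3 ratios tested, which does not pass.

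Replicates 3 and 4 at 1 week were the high samples for Mt1, Mt2, Hmox1 and Gsta4. They were also higher than replicates 1 and 2 for other members, among them Nfe2l2, Keap1, Srxn1, Gsr and Txnrd1. Against replicates 1 and 2, Ftl1, Gsto1 and Prdx2 were instead lower in replicates 3 and 4. The melanocyte markers (Dct, Pmel, Tyrp1, Mlana and Sox10) were also high in these libraries: they summed to 4.68, 3.25, 15.3 and 20.8 RPKM in that order at 1 week and to 1.28, 5.58, 3.10 and 3.14 RPKM at 3 weeks, and 1 of the 4 that could be tested fell (Pmel). The split was not particular to melanocyte markers. Of the KC markers, Trp63, Itga6, Itgb4 and Dsp were also higher in replicates 3 and 4 than in replicates 1 and 2 at 1 week. Krt5, Krt14, Cdh1 and Perp did not divide in this way. The part of melanocytes in the values of Mt1, Mt2, Hmox1 and Gsta4 was not tested.

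**Figure D4:**
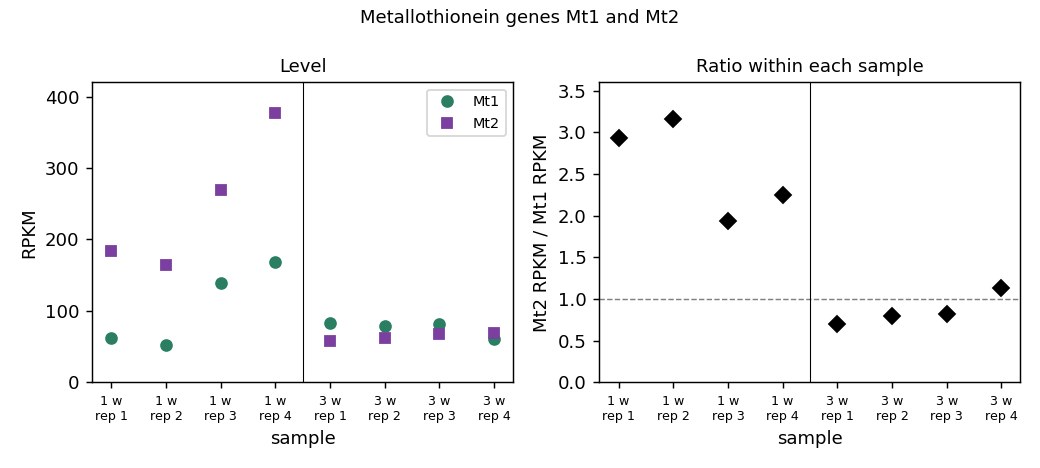
Left, RPKM of Mt1 (circles) and Mt2 (squares) in each sample. Right, the ratio of Mt2 to Mt1 RPKM within each sample, with a dashed line at 1; the ratio lies between 1.94 and 3.16 at 1 week and between 0.706 and 1.13 at 3 weeks.

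A list of 58 further genes of the pathway gives the surroundings of these results: partners of NRF2, cystine uptake, NADPH supply, export, haem handling and further transferases and peroxidases. Of the 54 that had enough reads, 19 (35.2%) passed, 9 higher and 10 lower, with a median change of 0.10, against 32.8% and 0.03 for all tested genes. Abcc2, Gsta1, Gstm3 and Ggt1 were not tested. Both genes for cystine uptake fell. Slc7a11 encodes the transporter that brings in cystine for glutathione synthesis, and it was at 3.41, 3.99, 1.91 and 3.08 RPKM at 1 week and at 0.678, 0.778, 0.630 and 0.391 RPKM at 3 weeks. All 3-week samples lay below all 1-week samples, and Slc7a11 fell by 2.15 (SE 0.28, adjusted p = 0.000821). Its partner chain Slc3a2 spanned 64.0 to 121 RPKM at 1 week against 26.1 to 40.4 RPKM at 3 weeks (-1.27 ± 0.22, adjusted p = 0.00305). Chac1, an enzyme that breaks glutathione down, fell from a range of 35.9 to 82.1 RPKM to 13.3 to 20.9 RPKM (-1.49 ± 0.32, adjusted p = 0.00732).

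Of the genes for NADPH, the electron source of glutathione and thioredoxin reductase, Me1 (malic enzyme) rose from a range of 22.1 to 26.7 RPKM to 33.1 to 40.1 RPKM (0.84 ± 0.10, adjusted p = 0.000664), and G6pdx (glucose-6-phosphate dehydrogenase) did not pass (0.39 ± 0.19, adjusted p = 0.150). Slc48a1, a haem transporter, rose by 1.05 ± 0.19 (adjusted p = 0.00346). Sqstm1, whose product p62 binds KEAP1, rose by 0.79 ± 0.24 (adjusted p = 0.0336), but not when any of 6 samples was left out (replicates 1, 3 and 4 at 1 week and 1, 2 and 3 at 3 weeks, adjusted p from 0.0513 to 0.0922). Bach1, which competes with NRF2 for AREs (0.14 ± 0.17, adjusted p = 0.545), and Mafg, a small MAF partner (0.18 ± 0.14, adjusted p = 0.340), did not pass.

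Further genes fell that are otherwise known from the same defence: Pir (-0.96 ± 0.15, adjusted p = 0.00167) and Txnrd2, the mitochondrial thioredoxin reductase (-0.93 ± 0.21, adjusted p = 0.00976). The theta-class transferase Gstt3 rose by 0.90 ± 0.20 (adjusted p = 0.00893), but it did not pass on the 14.8% of its reads that were uniquely mapped (0.71, adjusted p = 0.0616) nor with the preparation as a block (0.73, adjusted p = 0.0847). Of the remaining named genes, each call was lost on leaving out single samples, and those of Gstt2 (1.19, adjusted p = 0.141), Gpx8 (0.64, adjusted p = 0.0708) and Gpx7 (-0.88, adjusted p = 0.136) also with the preparation as a block. Gstt2 rose by 1.33 ± 0.36 (adjusted p = 0.0205; from 0.0520 to 0.0581 without replicates 2, 3 or 4 at 1 week). Gpx8, a peroxidase of the endoplasmic reticulum, rose by 0.91 ± 0.26 (adjusted p = 0.0256; from 0.0537 to 0.0750 without replicates 1, 2 or 4 at 1 week or 2 or 3 at 3 weeks), with 12.8% of its reads uniquely mapped. Its relative Gpx7 fell by 0.87 (SE 0.28, adjusted p = 0.0396; from 0.0522 to 0.110 without any sample other than replicate 2 at 1 week). Gstp2 fell by 1.79 (SE 0.54, adjusted p = 0.0318; from 0.0520 to 0.0899), and the exporter Abcc3 fell by 1.54 (SE 0.48, adjusted p = 0.0375; from 0.0597 to 0.105), each losing the call without replicates 2, 3 or 4 at 1 week or 1, 2 or 3 at 3 weeks. Of the Gstp2 reads 20.3% were uniquely mapped, and the fit on uniquely mapped reads gave no value for this gene.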

How the data were processed

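Poly(A) RNA of 8 samples of KCs was sequenced. The authors aligned the reads to GRCm38 in the CLC Genomics Workbench (version 12, default settings) and deposited, per gene, counts of total and unique exon reads without normalization, together with RPKM values. Use of the strand and the annotation release are not given in the sources used here. Total exon read counts were filtered by filterByExpr, normalized by TMM and tested with edgeR 4.0.16 (R 4.3.3) without pairing, since the study's statistics name unpaired tests, although it grew the same batches of cells for both times; 3 preparations that occur at both times served as a block in an alternative. SEs were derived from the F statistic. The fits were tested on simulated data. Alternatives used DESeq2 1.42.0, limma 3.58.1 on log2(RPKM + 0.1) and log2(RPKM + 1), other filters and normalizations, unique reads, blocks and sample omissions. Values per sample were given for called genes of at least 2-fold and for the factor, its main targets, peroxidases, dismutases and metallothioneins, and of the further genes the 12 largest called changes and 6 fixed genes were named (Slc7a11 under both rules). The smallest chi-square per degree of freedom between replicates was 14.6, so none was a duplicate. Per-sample columns of the tables that hold gene and intron totals served only for checks. Members and lists were chosen with earlier results of these data known. Sequences are from RefSeq, searched and plotted with Python 3.11.15 and matplotlib 3.10.9.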

Additional observations from a re-analysis of the deposited data

Results flagged for a closer look

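In 4 of the 78 sets of 4 samples examined (39 genes at 2 times), the highest or lowest sample stood far from the other 3 by Dixon's test, and chance alone gives about 1 in 20 such sets. Of the 4, 3 concern replicate 4 at 3 weeks. Srxn1 was at 36.2 RPKM there, against 49.3 to 51.3 RPKM in the other 3-week samples. Gsta3 was at 2.18 RPKM, against 0.383 to 0.589 RPKM. Gsta4 was at 46.2 RPKM, against 10.3 to 14.6 RPKM. The fourth is Gsta3 in replicate 2 at 1 week, at 0.156 RPKM against 0.0605 to 0.0652 RPKM, values that rest on few reads.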

How the results depend on the processing

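The numbers of called genes changed with the blocks, with the scale and with the samples left out. With a replicate block over the replicate numbers of the labels, 13 of the 41 genes were called (10 higher, 3 lower) and 14 of the further pathway genes (5 higher, 9 lower). Of all tested genes 2867 (22.8%) were called, with 1309 (10.4%) higher and 12.4% lower. Correlations between the deviations of same-numbered samples ran from -0.227 to 0.249. Replicates 2 and 3 carry different preparation numbers at the 2 times (replicates 1 and 4 the same), so the label numbers were not taken as pairs. The preparation numbers match for 3 preparations, whose pairs had correlations of -0.227, 0.2 and 0.249. The highest correlation, 0.416, joined different preparations (replicate 1 at 1 week, replicate 3 at 3 weeks). The correlations thus tell neither pairing apart from other pairs. The replicate block ended the calls of Nqo1, Gclc, Gss, Gstm2 and Mgst2. With the preparation number as the block, over 6 samples, 10 genes were called (6 higher, 4 lower) and 12 further genes (4 higher). Of all tested genes 24.6% were called in that fit, with 1316 (10.4%) higher and 14.2% lower. On log2(RPKM + 0.1) 9 of the 41 genes were higher, 4 further genes higher and 1292 of all genes higher (10.3%) and 3025 lower (24.0%). On log2(RPKM + 1) these numbers were 9, 4, 1252 (9.94%) and 3103 (24.6%). DESeq2 called 20 of the 41 genes, against 39.0% of all genes for which it gave a value. With each sample left out in turn, from 10 to 20 of the 41 genes were called (8 to 16 higher, 1 to 4 lower), 11 to 21 further genes (4 to 11 higher, 7 to 10 lower) and 3015 to 4861 of all genes (1371 to 2284 higher, 1631 to 2667 lower). The counts over all genes made up 23.7% to 38.0% of those tested, with 10.8% to 17.8% higher and 12.7% to 20.8% lower. Without replicates 3 and 4 at 3 weeks together, a choice made after the data had been seen, 18 were called (13 higher, 5 lower). In that fit 36.6% of all genes passed, 17.6% higher and 19.0% lower. None of the 18 called genes changed direction under any alternative run.

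Of the genes named, those whose change turned direction under some alternative had not passed the test, and the cause was not tested. Gpx1 was at -0.022 with the replicate block, -0.31 with the preparation block, -0.19 on both RPKM scales and from -0.20 to 0.32 with each sample left out. Txnrd1 was at -0.011 with the replicate block, -0.039 with the preparation block, -0.010 under upper-quartile normalization, -0.0073 under the stricter filter, -0.060 without a filter, -0.029 on unique reads, -0.17 on both RPKM scales, and from -0.11 to 0.12 with each sample left out. Leaving out samples gave ranges of -0.12 to 0.011 for Keap1, -0.32 to 0.19 for Txn1, -0.00075 to 0.49 for Sod1 and -0.53 to 0.023 for Mt1. Fth1 was at -0.10 without replicates 3 and 4 at 3 weeks together, and Bach1 at -0.023 on log2(RPKM + 0.1) and -0.021 on log2(RPKM + 1). Depth limited Gsta2, Gsta3, Gstt1 and Sod3, which had few or no reads.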

Other observations

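Reads on the 41 genes made up between 0.766% and 0.900% of the exon reads of a sample at 1 week and between 0.982% and 1.40% at 3 weeks, and ferritin transcripts led at both times.

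The samples of a time did not rank alike. After TMM normalization, replicate 3 at 3 weeks was the highest 3-week sample for 24 of the 39 tested genes (61.5%, against 39.4% of all tested genes), and replicate 1 was the highest for none (17.6% of all tested genes). Replicate 4 at 3 weeks was the highest for 12 (30.8%, against 33.6% of all tested genes) and the lowest for 17 (43.6%, against 39.35%). At 1 week, replicate 1 was the highest for 17 of the 39 genes (43.6%, against 25.8% of all tested genes). Replicate 2 was the lowest for 18 (46.15%, against 24.9%).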
